A study of Homo sapiens with 8 samples.

Results

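The genes described here are 9 members of the machinery that presents peptides on major histocompatibility complex (MHC) class I molecules, HLA-B, HLA-C, HLA-E, HLA-F, B2M, TAP1, TAP2, PSMB8 and PSMB9, among the 17240 genes named on the arrays. They were matched through the accession of each array probe, which gave 13 of the 41000 probes. They were chosen on the log2 ratios described below, since HLA-B and HLA-C had been seen to be lower in both knockdowns as labelled. The ratios of all 9 genes are therefore a description and carry no test. Probes whose accession did not match RefSeq stayed unnamed, so further probes of these genes may be on the array.

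The arrays compared clones of CAPAN-2, an established human pancreatic adenocarcinoma cell line. ErbB2-KD clones (EV7, EV12, EV9 and EV18 in the labels) had been stably transfected with a plasmid for a short hairpin RNA against ERBB2 and selected with puromycin. Their control, NT, was a pool of RNA from 4 clones with the empty vector. MUC4-KD clones had received a hairpin against MUC4 by retrovirus under G418 selection. Their control was a pool of 4 empty vector Mock clones. The methods state 4 clones of each knockdown, and the labels put the knockdown RNA in Cy5 on 2 arrays of an experiment and in Cy3 on the other two. They name 1 ErbB2-KD clone for each array but not the MUC4-KD clones. Arrays 1 and 3, and 2 and 4, of MUC4-KD could thus be dye swaps of the same clones, which cannot be told from the labels. Each pool is a single control sample, and the tests therefore leave out how far control clones vary. Nothing states that the clones were cultured separately, so the spread between arrays may in part be technical.

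A class I molecule is a heavy chain (HLA-B and HLA-C among those of nearly all cells, the less variable HLA-E, HLA-F and HLA-G beside them) held with the small invariant chain β2-microglobulin, the product of B2M. Its peptide cargo is cut in the cytosol by the proteasome, whose immunoproteasome form carries the catalytic subunits PSMB8 and PSMB9. The peptides are pumped into the endoplasmic reticulum by the transporter made of TAP1 and TAP2, and the loaded complex is shown to CD8+ T cells and, through HLA-E, to natural killer cells. Interferons raise these genes together through factors such as IRF1 and the class I transactivator NLRC5.

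Of the 9 genes, B2M lies on chromosome 15 (44711517 to 44718145 in GRCh38.p14) and the others lie on chromosome 6, HLA-F at 29723434 to 29738532, HLA-E at 30489509 to 30494194, HLA-C at 31268749 to 31272092 and HLA-B at 31353875 to 31357179. TAP2 (32821831 to 32838739), PSMB8 (32840717 to 32844679), TAP1 (32845209 to 32853704) and PSMB9 (32854192 to 32859851) follow each other without a gap of more than a few kilobases. TAP1 and PSMB9 run in opposite directions from starts 488 bases apart. Promoter windows of 250 bases before to 50 after the start were listed by RefSeq (GRCh38.p14) for 8 of the 9 genes (not for HLA-E), with a second start each for TAP1 and PSMB8. Both strands were searched for the core of the interferon-stimulated response element (ISRE, GAAA, any 2 bases and GAAA again), the interferon γ-activated site (GAS, TTCNNNGAA), the X2 box core of class I promoters (TGACGC), the Y box (CCAAT) and 2 NF-κB sites, GGGGATTCC and the site of the B2M and TAP1 promoters (the last capitals of the TAP1 stretch). Stretches of 4 promoters are shown because they hold the arrangements that recur among the members, with every match in capitals (on either strand, so the Y box also reads ATTGG and the ISRE core also reads with T). They are reference sequences, not the alleles of CAPAN-2, and are written 5′ to 3′ on the strand of the gene. The stretches are chr6:31357229-31357359 (minus strand) for HLA-B, chr6:31272142-31272202 (minus strand) for HLA-C, chr15:44711367-44711472 (plus strand) for B2M and chr6:32853764-32853844 (minus strand) for TAP1.
HLA-B: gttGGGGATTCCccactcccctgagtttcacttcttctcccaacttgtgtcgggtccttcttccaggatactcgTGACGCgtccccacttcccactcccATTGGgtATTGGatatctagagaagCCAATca
HLA-C: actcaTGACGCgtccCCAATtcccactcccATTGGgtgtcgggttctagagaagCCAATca
B2M: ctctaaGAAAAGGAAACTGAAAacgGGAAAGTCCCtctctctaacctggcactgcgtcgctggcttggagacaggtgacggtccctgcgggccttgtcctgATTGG
TAP1: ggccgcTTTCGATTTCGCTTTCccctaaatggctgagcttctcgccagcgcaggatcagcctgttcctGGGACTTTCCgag

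HLA-B and HLA-C carried the X2 box core at -106 and -105, followed by Y boxes down to -56 in both. Only HLA-B among the 8 held GGGGATTCC, at -177, a sequence present in 0.285% of all 35116 windows. B2M and TAP1 each held 2 ISRE cores that overlap by 4 bases and, toward the start, the other NF-κB site, which 0.191% of all windows hold. An ISRE core was found in 5 of 8 members (HLA-F, B2M, TAP1, TAP2 and PSMB8) and in 3.57% of all windows. The Y box was found in 6 of 8 members and 34.6% of windows, the X2 box core in 3 of 8 and 9.14%, and the GAS in 2 of 8 (TAP1 and PSMB8, at the second start of each) and 7.66%. The ISRE core of PSMB8 also lay at its second start only. A member counted if any of its windows matched, while the percentages are of single windows, so the 2 are unlike for TAP1 and PSMB8. These matches are letters in a window and do not show binding. Only exact matches were counted, so a window without a match may still hold an element that departs from the pattern.

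**Figure D1:**
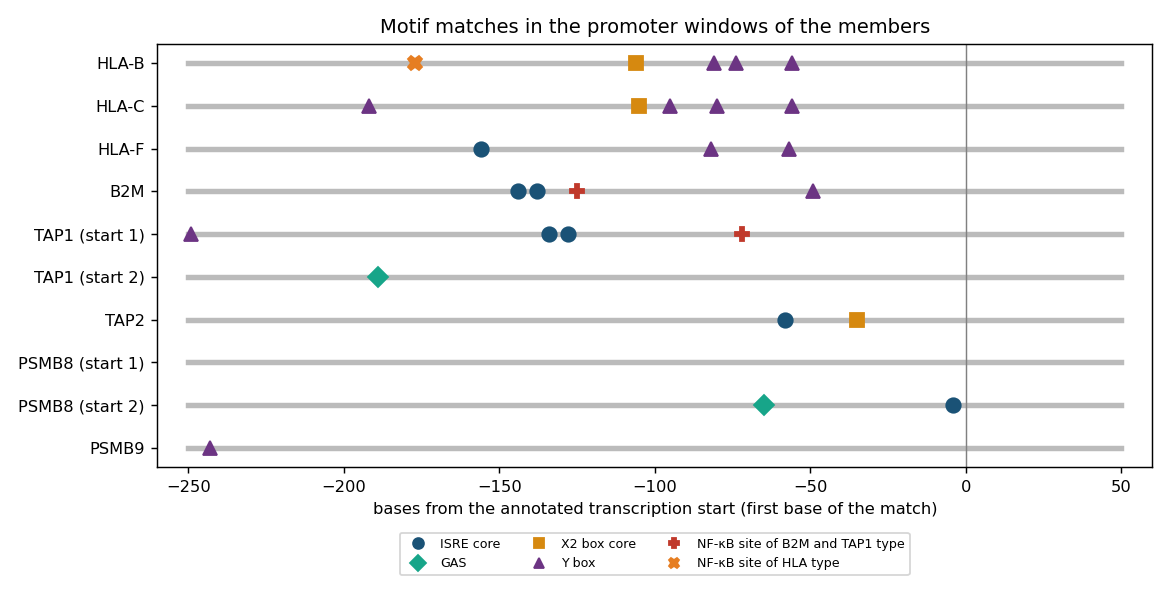
Each grey line is the promoter window of a member, the horizontal axis is the distance in bases from the annotated start, and each symbol is the first base of a motif match on either strand. X2 and Y boxes are aligned in HLA-B and HLA-C, and paired ISRE cores upstream of an NF-κB site are found in B2M and TAP1.

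The targeted genes were read first. Errors after ± are the SD over 4 arrays unless named as an SE. In ErbB2-KD, the brighter ERBB2 probe (A_23_P89249) had log2 ratios to NT of -0.58, -0.32, -0.33 and -0.38 on arrays 1 to 4, lower on 4 of 4 arrays and -0.40 ± 0.12 on average (limma adjusted p = 0.145), while the dimmer probe stayed at 0.04 ± 0.02. The study reports a nearly complete loss of ErbB2 protein in the ErbB2-KD clones by Western blotting, and lower ErbB2 RNA by qRT-PCR. Of 4 MUC4 probes 2 were called in the RNA labelled MUC4-KD, both higher than in Mock, and none had a mean below 0. The brightest (A_24_P239176) had 0.27 ± 0.23 (limma adjusted p = 0.167) and the third (A_24_P239177) 0.41 ± 0.33 (limma adjusted p = 0.0984), while the dimmest (A_24_P239183) had 1.34 ± 0.84 (limma adjusted p = 0.0355). The second (A_24_P208825) had 1.71, 2.34, 2.21 and 1.08, 1.84 ± 0.57 on average (limma adjusted p = 0.00804). These 2 calls are opposite to what the label of a MUC4 knockdown states. In the study, MUC4 protein was lost in the MUC4-KD clones by Western blotting, and MUC4 RNA was lower in them by qRT-PCR. The study's own list for MUC4-KD gives MUC4 and class I genes with the opposite sign to the dyes of the labels. The RNA is therefore called "the RNA labelled MUC4-KD" below. Where MUC4-KD stands alone for a value, it means this RNA over Mock, and fell or rose is as labelled only. Such a direction is thus not shown to be that of MUC4 silencing. If the 2 RNAs of the MUC4-KD arrays were exchanged, every MUC4-KD value would change its sign, and every difference between the knockdowns would take another value.

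Of the markers checked for the cell type, 6 of 6 epithelial genes were well above background in all 16 channels. So were 1 of 3 B cell genes (CD79A) and 2 of 3 myeloid genes (CD14 and CD68), but 0 of 3 T cell, 0 of 3 endothelial and 0 of 2 fibroblast genes. Of these VWF was above background in 7 knockdown and 7 control channels and CD3E in 4 and 4, while DCN was so in none and the leukocyte gene PTPRC in 1 channel. The part of these cell types in the results was not tested. The share of probes well above background ranged from 56.7% to 74.2% over the channels, the median spot signal was 100 to 593, and no spot was saturated. Correlations of log2 ratios over probes were 0.20 to 0.72 among ErbB2-KD arrays and 0.33 to 0.83 among MUC4-KD arrays. In each experiment 1 array correlated less with the others, array 2 in ErbB2-KD (0.20 to 0.39, with the highest median signal) and array 4 in MUC4-KD (0.33 to 0.53).

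All 13 probes of the members were well above background in both channels of all 8 arrays. The median log2 ratio of the 9 genes, each by its brightest probe, was -1.11 in ErbB2-KD (from -1.54 for PSMB9 to -0.51 for TAP2) and -1.21 in the RNA labelled MUC4-KD (from -2.04 for HLA-B to -0.41 for PSMB9). The medians over all tested probes were -0.0073 and 0.0082. In ErbB2-KD 9 of 9 genes and 12 of 13 probes were lower on 4 of 4 arrays, against 15.3% of all tested probes, and in the RNA labelled MUC4-KD 7 of 9 genes and 10 of 13 probes, against 22% of all tested probes. Nothing is read from these counts, since the ratios chose the genes. The arrays measure the RNA of whole cultures, so that less RNA in each cell and fewer cells with the RNA cannot be told apart.

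**Figure D2:**
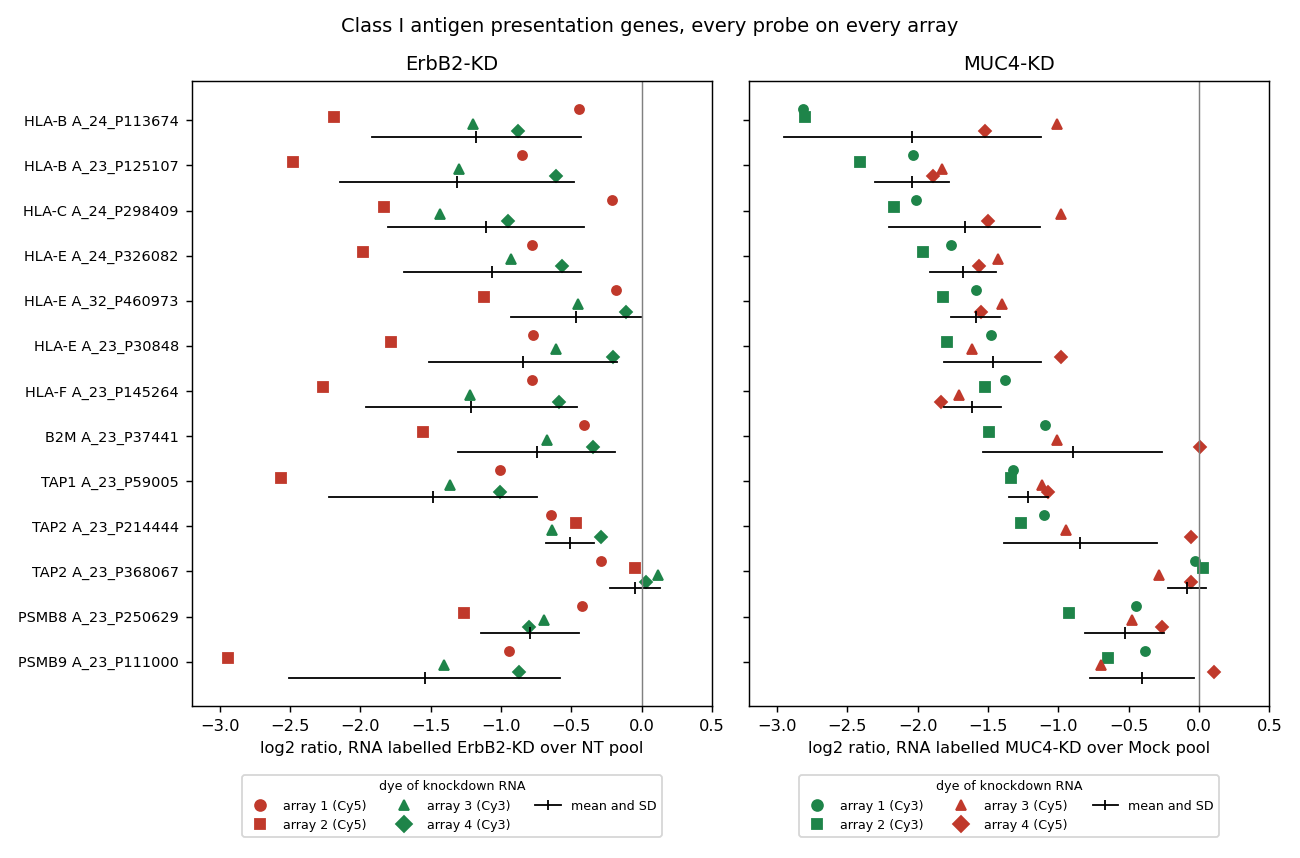
Log2 ratio of the labelled knockdown RNA over its control pool (horizontal axis) for each of the 13 member probes, with 1 symbol for each of 4 arrays coloured by the dye of the knockdown RNA, and the mean ± SD in black. ErbB2-KD array 2 was the lowest for nearly every probe, and the heavy chains lay further from 0 in MUC4-KD than the proteasome subunits.

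Among the heavy chains, HLA-B (A_24_P113674) had ratios of -0.45, -2.19, -1.20 and -0.88 in ErbB2-KD, a mean of -1.18 ± 0.74 (SD, n = 4) or 2.26-fold lower than in NT. In the RNA labelled MUC4-KD it had -2.82, -2.80, -1.01 and -1.52, a mean of -2.04 ± 0.91 (SD, n = 4) or 4.11-fold lower than in Mock. The 2 sets of ratios overlapped. The second HLA-B probe had -0.85, -2.48, -1.30 and -0.61 against -2.03, -2.41, -1.83 and -1.89, with the same mean of -2.04 in MUC4-KD and an SD of 0.26 in place of 0.91. HLA-C, which like HLA-B presents peptides to T cells and is also read by natural killer cells, had -0.21, -1.83, -1.43 and -0.95 in ErbB2-KD (-1.11 ± 0.70) and -2.01, -2.17, -0.98 and -1.50 in MUC4-KD (-1.67 ± 0.54).

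HLA-E, whose molecule presents leader peptides of other class I chains, was read by 3 probes. The brightest (A_24_P326082) gave -0.78, -1.98, -0.93 and -0.57 in ErbB2-KD (-1.06 ± 0.63) and -1.76, -1.96, -1.43 and -1.56 in MUC4-KD (-1.68 ± 0.24). The other two had means of -0.47 and -0.84 in ErbB2-KD and of -1.59 and -1.47 in MUC4-KD, so that the probes lay closer together in the second experiment. HLA-F gave -0.78, -2.26, -1.22 and -0.59 in ErbB2-KD (-1.21 ± 0.75), and -1.38, -1.52, -1.70 and -1.84 in MUC4-KD (-1.61 ± 0.20). For all 4 heavy chains the lowest ErbB2-KD ratio was that of array 2, and without it the means were -0.84 for HLA-B, -0.86 for HLA-C, -0.76 for HLA-E and -0.86 for HLA-F. In MUC4-KD the brightest HLA-B, HLA-C and HLA-E probes were lower on arrays 1 and 2, where the knockdown RNA was in Cy3, than on arrays 3 and 4, where it was in Cy5, and HLA-F was higher there. The part of the dye in this was not tested.

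B2M, the invariant partner of every heavy chain, had -0.41, -1.56, -0.67 and -0.34 in ErbB2-KD (-0.75 ± 0.56), a mean that became -0.48 without array 2. In the RNA labelled MUC4-KD it had -1.09, -1.49, -1.01 and 0.00 (-0.90 ± 0.64), and -1.20 without array 4. B2M was thus below Mock on MUC4-KD arrays 1 to 3, and level with it on array 4.

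The transporter subunit TAP1 had -1.01, -2.56, -1.36 and -1.01 in ErbB2-KD (-1.48 ± 0.74, 2.80-fold lower, and -1.13 without array 2), and the narrowly spread ratios -1.33, -1.34, -1.12 and -1.08 in MUC4-KD (-1.21 ± 0.14, 2.32-fold lower). TAP2, its partner in the transporter, was dim, at the 55.6th percentile of signal where the other members lay between the 92.8th and the 99.7th. Its brighter probe had -0.64, -0.47, -0.64 and -0.29 in ErbB2-KD (-0.51 ± 0.17) and -1.10, -1.27, -0.95 and -0.05 in MUC4-KD (-0.84 ± 0.54). With the log ratios of the scanner software these means were -0.83 and -1.49. The dimmer TAP2 probe did not follow, at -0.05 ± 0.18 and -0.08 ± 0.14. TAP2 was the only member whose brightest probe was not lowest on ErbB2-KD array 2.

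The immunoproteasome subunit PSMB9 had the largest mean difference of the 9 genes in ErbB2-KD, with -0.94, -2.94, -1.41 and -0.88 (-1.54 ± 0.96, 2.91-fold lower), and -1.07 without array 2. In the RNA labelled MUC4-KD it had the smallest, with -0.39, -0.64, -0.70 and 0.11 (-0.41 ± 0.37), and -0.58 without array 4. PSMB8 had -0.42, -1.26, -0.69 and -0.80 in ErbB2-KD (-0.80 ± 0.35, and -0.64 without array 2) and -0.45, -0.93, -0.48 and -0.26 in MUC4-KD (-0.53 ± 0.28). The ErbB2-KD ratios of PSMB9 lay below all 4 of MUC4-KD, and those of PSMB8 overlapped.

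The members thus moved in a different order in the 2 experiments. On each ErbB2-KD array the mean ratio of HLA-B, HLA-C, HLA-E and HLA-F and that of TAP1, PSMB8 and PSMB9 lay within 0.24 of each other, at -0.55 and -0.79 on array 1, -2.07 and -2.26 on array 2, -1.19 and -1.15 on array 3, and -0.75 and -0.90 on array 4. On the MUC4-KD arrays the heavy chains were lower by 1.27, 1.14, 0.52 and 1.20, at -1.99 and -0.72, -2.11 and -0.97, -1.28 and -0.76, and -1.61 and -0.41. The grouping was made after the values were seen, leaves out B2M and the dim TAP2, and was not tested. Its means join unlike genes. On ErbB2-KD array 2 PSMB8 had -1.26 and PSMB9 -2.94. In MUC4-KD the mean of TAP1 was -1.21, lower than those of PSMB8 (-0.53) and PSMB9 (-0.41). The median over the 9 genes was -0.64, -1.98, -1.20 and -0.80 on the ErbB2-KD arrays and -1.33, -1.49, -1.01 and -1.08 on those of MUC4-KD. The SD of these 4 medians was 0.60 in ErbB2-KD and 0.22 in MUC4-KD. Without ErbB2-KD array 2 the median of the gene means was -0.84 in place of -1.11, and without MUC4-KD array 4 it was -1.26 in place of -1.21. Each slide held arrays of both experiments. The members' median was lower in MUC4-KD by 0.67 and 0.42 on slides 2 and 3, and lower in ErbB2-KD by 0.90 on slide 1, which held ErbB2-KD array 2.

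**Figure D3:**
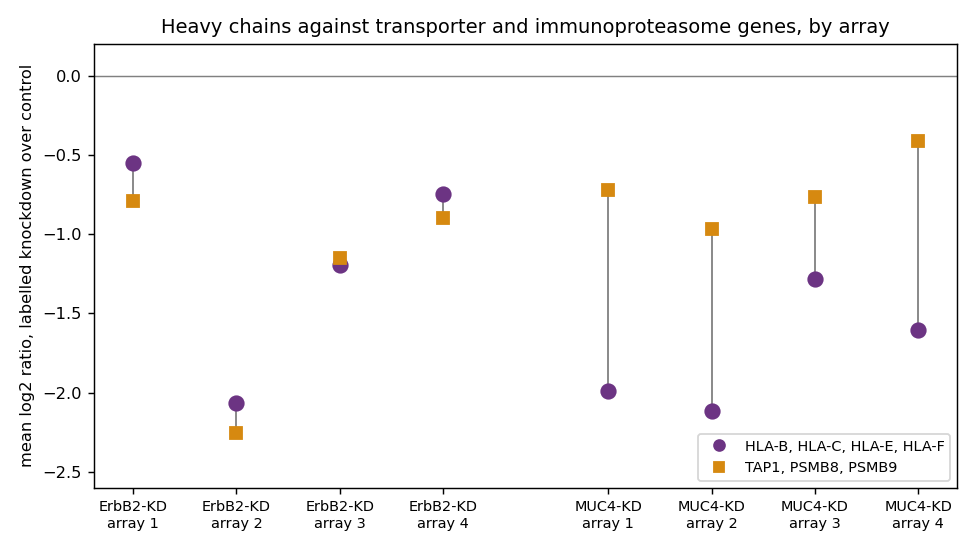
Mean log2 ratio (vertical axis) of the 4 heavy chain genes (circles) and of TAP1, PSMB8 and PSMB9 (squares) on each of the 8 arrays, joined by a line. The symbols lie within 0.24 of each other in ErbB2-KD, and 0.52 to 1.27 apart in MUC4-KD with the heavy chains lower.

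The signal of each RNA was also followed on its own, as the log2 channel signal of the brightest probe after normalization, with 4 arrays for each RNA. It can be set side by side between RNAs only within a probe. For HLA-B, Mock was highest at 17.85 ± 0.20 (SD, n = 4), NT next at 16.99 ± 0.31, and ErbB2-KD and MUC4-KD were level at 15.81 ± 0.59 and 15.81 ± 0.85. The ranges of Mock and NT did not overlap with each other or with the knockdowns, and the knockdowns overlapped. HLA-F had the same control order, with 15.76 ± 0.11 in Mock, 14.78 ± 0.22 in NT, 14.15 ± 0.17 in MUC4-KD and 13.57 ± 0.95 in ErbB2-KD. For TAP1 the controls overlapped, at 15.91 ± 0.22 in NT and 15.82 ± 0.06 in Mock, and so did the knockdowns at 14.60 ± 0.15 in MUC4-KD and 14.42 ± 0.53 in ErbB2-KD. PSMB9 was highest in NT at 16.06 ± 0.17, above Mock at 15.31 ± 0.39 with no overlap. Over the 9 genes Mock was highest for 6 and NT for 3 (TAP1, PSMB8 and PSMB9), and ErbB2-KD was lowest for 6 and MUC4-KD for 3 (HLA-B, HLA-C and TAP2). With the RNAs of the MUC4-KD arrays exchanged, the RNA that was highest for 6 would be the knockdown. The part of the control levels in the PSMB9 ratios was not tested, and each control pool is 1 sample.

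**Figure D4:**
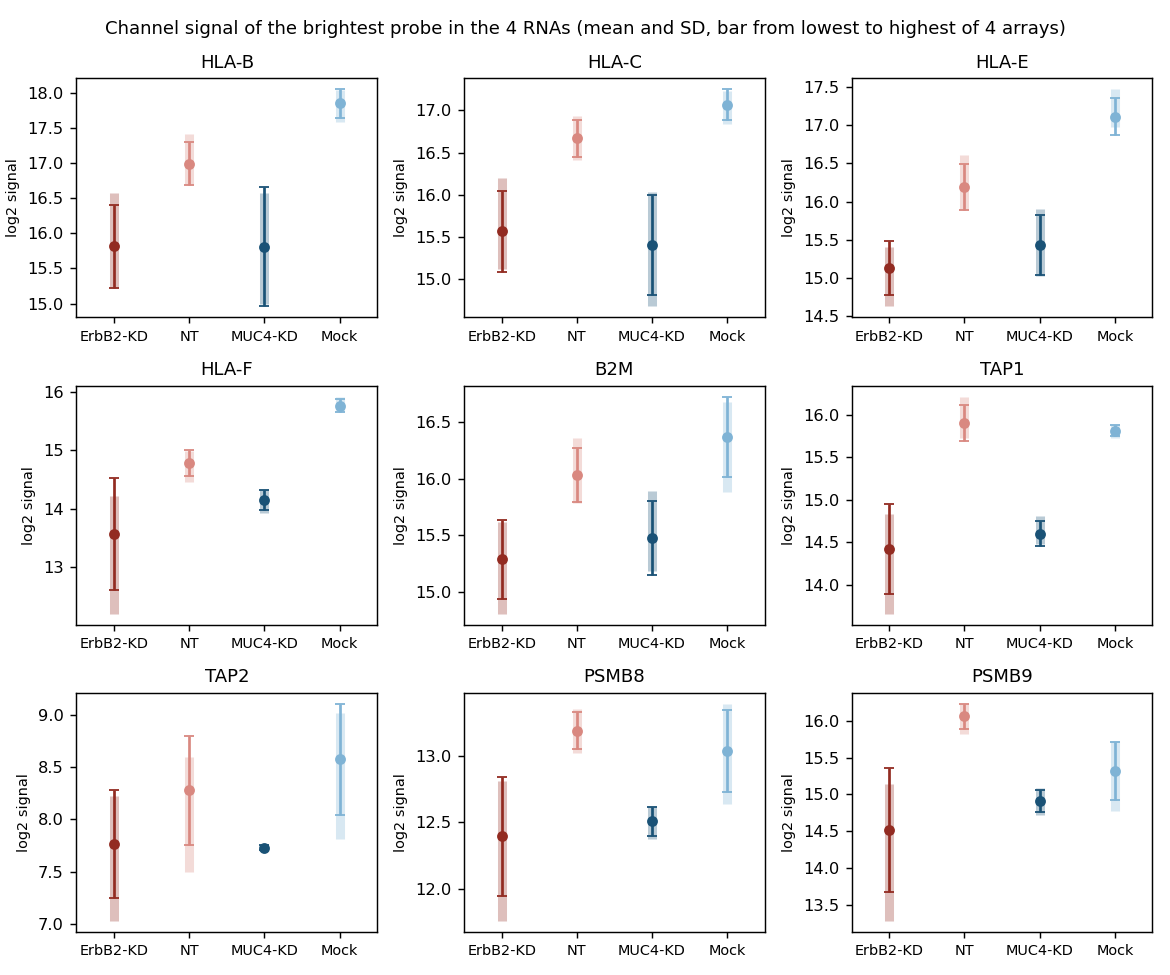
Log2 channel signal (vertical axis, a scale of its own for each gene) of the brightest probe of the 9 members in the 4 RNAs, with points and error bars for the mean ± SD of 4 arrays and pale bars from the lowest to the highest array. Mock lies above NT for HLA-B and HLA-F, and NT above Mock for PSMB9.

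The rest of the pathway was read from lists of genes that are not members, each by its brightest tested probe with limma and Benjamini-Hochberg adjustment over all tested probes. Of all tested probes, 0.884% were called lower and 0.549% higher in ErbB2-KD (adjusted p under 0.05). In the RNA labelled MUC4-KD 8.48% were called lower and 12% higher. For the difference between the knockdowns, 3.71% were called lower in MUC4-KD and 7.03% higher, and 9.61% and 8.67% with the sign of the MUC4-KD ratios turned, an alternative chosen after the data were seen. Of the 95 list genes tested in ErbB2-KD 3 fell and 0 rose, and of 97 in MUC4-KD 34 fell and 8 rose. Leaving out ErbB2-KD array 1 or 3 gave 0 limma calls, with 32 and 28 list genes at an unadjusted p under 0.05, leaving out array 2 gave 1 and leaving out array 4 gave 2. Leaving out a MUC4-KD array gave 19, 22, 11 and 49 calls for arrays 1 to 4. The methods' t-test left 1 call in MUC4-KD after adjustment (47 list genes unadjusted), and median centring in place of loess left 0 by limma (19 unadjusted).

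Of 9 tested genes among other class I and class I like heavy chains, 4 fell in the RNA labelled MUC4-KD, and 0 were called in ErbB2-KD, where 5 had an unadjusted p under 0.05 and the methods' t-test left 0 after adjustment. HLA-G and the pseudogenes HLA-H and HLA-J fell in MUC4-KD, with means of -1.57, -1.74 and -1.89 (limma adjusted p of 0.0102, 0.00544 and 0.00375), and had -1.08, -1.12 and -1.22 in ErbB2-KD without passing the test. Class I genes are near-identical over long stretches, so probes of HLA-B, HLA-C, HLA-G, HLA-H and HLA-J may read each other's RNA, and these genes are not independent readings. The fourth was MR1, which presents vitamin metabolites (-0.77 ± 0.37, limma adjusted p = 0.0288, and up to 0.151 without an array). The stress ligands MICA and MICB had 0.31 and -0.10 in MUC4-KD by their brightest probes and were not called. Other MICB probes had 0.39 and -0.09 there.

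For peptide loading and trimming, 1 of 10 genes fell in ErbB2-KD, and 3 fell and 1 rose in MUC4-KD. Over all tested probes 0.884% were called lower in ErbB2-KD, and 8.48% lower and 12% higher in MUC4-KD. TAPBPL, a tapasin-related peptide editor, fell in both as labelled, by 0.79 ± 0.21 in ErbB2-KD (limma adjusted p = 0.0494) and by 0.53 ± 0.29 in MUC4-KD (limma adjusted p = 0.0477). Its difference between the knockdowns was 0.25 (limma adjusted p = 0.414), and 1.32 with the MUC4-KD sign turned (limma adjusted p = 0.00329). Tapasin itself (TAPBP), which bridges TAP and the empty heavy chain, had -0.30 ± 0.44 in ErbB2-KD (limma adjusted p = 0.468, and -0.11 without array 2) and fell by 0.66 ± 0.15 in MUC4-KD (limma adjusted p = 0.0180), although its dimmer probes had -0.20 and 0.08. HM13, a signal peptide peptidase, fell in MUC4-KD by 0.59 ± 0.09 on its brighter probe (0.12 on the other). The chaperone calnexin (CANX) rose there by 0.64 ± 0.32 (0.24 on its dimmer probe). HM13 was also the 1 gene of the list that was lower in MUC4-KD than in ErbB2-KD, at -0.75 ± 0.17 (SE, limma adjusted p = 0.0247). With the MUC4-KD sign turned it had 0.44 (limma adjusted p = 0.0964).

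Of 20 genes of the proteasome and its activators 0 were called in ErbB2-KD (5 at an unadjusted p under 0.05, 0 by the methods' t-test after adjustment), with a median of -0.08. In the RNA labelled MUC4-KD 2 of 20 fell and 2 rose, beside 8.48% lower and 12% higher over all tested probes. Those that fell were the core subunit PSMA7 (-0.95 ± 0.35) and the activator PSME3 (-0.68 ± 0.13, its dimmest probe 0.18). The proteasome assembly factor POMP (1.02 ± 0.13) and PSMB7 (0.45 ± 0.06) rose, and both were higher in MUC4-KD than in ErbB2-KD (limma adjusted p of 0.00784 and 0.0372 for the difference). With the sign turned these differences were -0.92 and -0.21 (limma adjusted p of 0.00983 and 0.423). PSMB10, the other catalytic subunit of the immunoproteasome, had -0.17, -1.49, -0.34 and -0.21 in ErbB2-KD (-0.55 ± 0.63, limma adjusted p = 0.306, and -0.24 without array 2) and -0.03, -0.16, -0.64 and -0.92 in MUC4-KD (-0.44 ± 0.41, limma adjusted p = 0.118). It lay below 0 on all 8 arrays and was not called in either experiment. Of the MHC class II list 0 of 10 and 0 of 11 tested genes were called (1 and 3 at an unadjusted p under 0.05, and 0 by the methods' t-test after adjustment), with medians of -0.07 and -0.11.

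Among the regulators of class I transcription, 1 of 23 genes fell in ErbB2-KD, and 4 of 24 fell and 5 rose in MUC4-KD. The shares over all tested probes were 0.884% lower in ErbB2-KD, and 8.48% lower and 12% higher in MUC4-KD. The call in ErbB2-KD was RELB, an NF-κB subunit (-1.20 ± 0.24, limma adjusted p = 0.0228), which had -0.60 ± 0.43 in MUC4-KD without passing the test.

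IRF9, a subunit of the factor that binds the ISRE, fell in the RNA labelled MUC4-KD (-1.27 ± 0.52). In ErbB2-KD IRF9 had -1.06 ± 0.63, lower on 4 of 4 arrays without passing the test (limma adjusted p = 0.106). Its difference between the knockdowns was -0.22 (limma adjusted p = 0.717), and 2.33 with the MUC4-KD sign turned (limma adjusted p = 0.00348). SOCS1, an inhibitor that interferon induces, fell in MUC4-KD (-0.81 ± 0.21, and -0.35 on its dimmer probe). NFYA (-0.44 on its brightest probe, 0.58 on the next) and RFXANK (-0.66), both subunits of factors that bind class I and class II promoters, also fell in MUC4-KD. IRF1 rose there, with 0.57, 0.68, 0.60 and 0.97 (0.70 ± 0.18, limma adjusted p = 0.0175), while it had -0.70, -2.67, 0.07 and 0.12 in ErbB2-KD, a mean of -0.80 ± 1.31 with both signs among the arrays (limma adjusted p = 0.436), and -0.17 without array 2. The other risen genes were NFYB (0.86 ± 0.20), IRF2 (0.69) and the interferon γ receptor subunits IFNGR1 (0.45) and IFNGR2 (0.59). In MUC4-KD the next NFYB probe had 0.30 (limma adjusted p = 0.0887) and the dimmer IRF2 probe 0.013 (limma adjusted p = 0.938). NFYA, RFXANK, IRF2, IFNGR1 and IFNGR2 were named after their values were seen. In ErbB2-KD they had 0.78, -0.15, -0.26, -0.72 and -0.68 and were not called (NFYA lay above 0 on 4 of 4 arrays, with a limma adjusted p of 0.0658). By the test of the difference NFYA was lower in MUC4-KD than in ErbB2-KD (-1.22, limma adjusted p = 0.00692) and IFNGR2 higher (1.26, limma adjusted p = 0.00790). With the MUC4-KD sign turned these were -0.34 and 0.085 (limma adjusted p of 0.227 and 0.794). NLRC5, the class I transactivator, was dim, and its probes disagreed. The brightest had 0.30 ± 0.46 in ErbB2-KD and -0.15 ± 0.16 in MUC4-KD (limma adjusted p of 0.471 and 0.369), and the next was not called in ErbB2-KD (limma adjusted p = 0.993) and had -1.06 ± 0.69 in MUC4-KD (limma adjusted p = 0.0412), with -1.37, -1.32 and -1.51 on MUC4-KD arrays 1 to 3 and -0.02 on array 4. The dimmest probe was not tested in ErbB2-KD and had -0.95 ± 0.62 in MUC4-KD (limma adjusted p = 0.0417), with -0.06 on array 4.

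Of the 6 lists the interferon-stimulated genes had the lowest median in both experiments. Of 23 tested 21 fell in the RNA labelled MUC4-KD, with a list median of -2.37 (22 at an unadjusted p under 0.05, and 1 by the methods' t-test after adjustment), and 1 (IFI44L) fell in ErbB2-KD, where the median was -0.88 and 15 had an unadjusted p under 0.05. In MUC4-KD the GTPase MX2 (-3.99 ± 0.34), OASL (-3.95 ± 0.45) and IFIT1 (-3.30 ± 0.58) were the lowest on average. IFIT3 had -4.63, -3.62 and -4.25 on arrays 1 to 3 and -0.39 on array 4. IFI44L had -3.15 ± 1.18 in ErbB2-KD (limma adjusted p = 0.0366). It was well above background in the knockdown channel on 2 of these 4 arrays, so that the size is uncertain, at -4.69 with the scanner's log ratios, and the call was lost with a dye term, median centring or no filter (limma adjusted p of 0.0595, 0.0783 and 0.111). In MUC4-KD IFI44L had -3.22 ± 0.64. The 2 list genes without a call in MUC4-KD were guanylate-binding proteins, GBP1 (-0.90, limma adjusted p = 0.0638) and GBP2 (0.14, limma adjusted p = 0.665). By the test of the difference 9 of 23 were lower in MUC4-KD than in ErbB2-KD and 0 higher. With the MUC4-KD sign turned 0 were lower and 22 higher, so that the direction and the number of these calls rest on the labels. The list median was lower in MUC4-KD by 0.24, 1.28 and 2.16 within the 3 slides. On the arrays themselves the list median was -0.48, -1.43, -1.33 and -0.41 in ErbB2-KD, where the members also were lowest on array 2, and -2.76, -2.21, -2.56 and -1.67 in MUC4-KD. The members' medians beside these were -1.11 and -1.21.

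**Figure D5:**
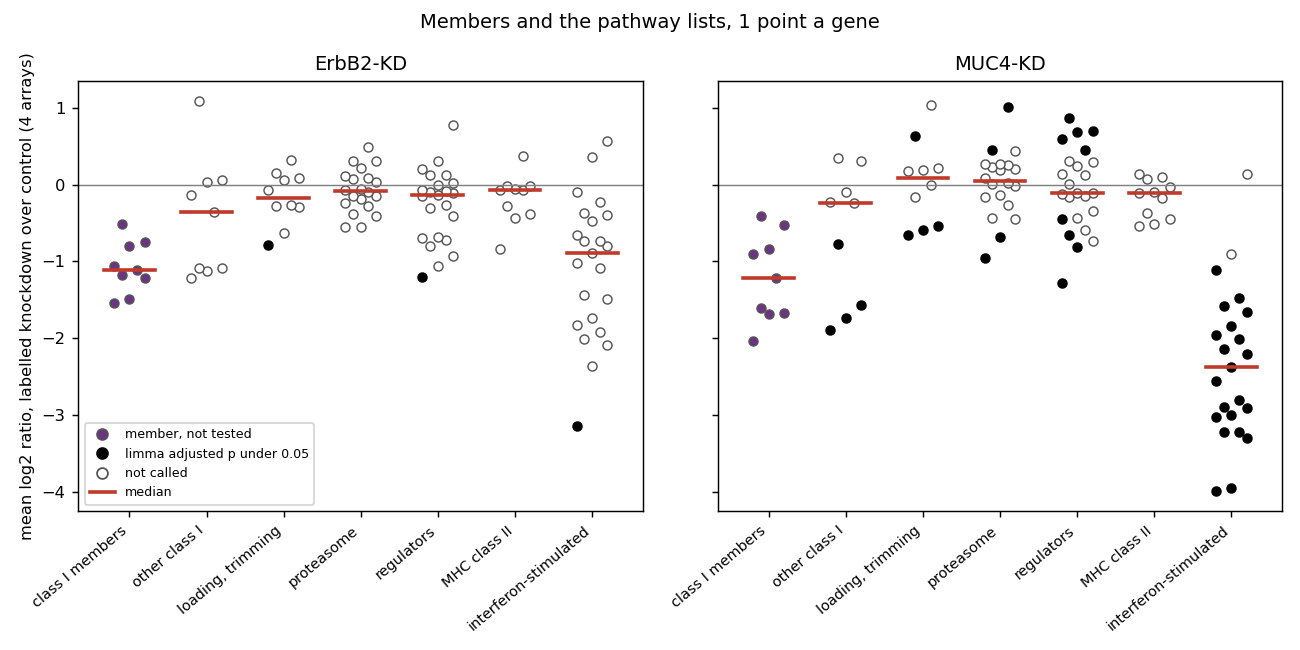
Mean log2 ratio over 4 arrays (vertical axis) of each member and of each tested gene of the 6 lists, in ErbB2-KD (left) and in the RNA labelled MUC4-KD (right), with filled black points for limma calls and red lines for medians. The interferon-stimulated genes reach a median of -2.37 in MUC4-KD, and the proteasome and MHC class II lists have medians near 0 in both.

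All 3 calls of named list genes in ErbB2-KD (RELB, TAPBPL and IFI44L) were lost on leaving out at least 3 of the 4 arrays singly, with adjusted p up to 0.236. In MUC4-KD 5 of the 26 calls of named list genes (HLA-J, IFI44L, MX2, OASL and IFIT1) were kept whichever array was left out. The other 21 were lost without at least 1 of arrays 1 to 3, with adjusted p up to 0.196 and no change of sign.

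Genes outside the pathway whose ratios followed the mean of the members most closely over the 8 arrays were SND1 (Pearson r = 0.983), FAM177A1 (0.981), KIAA0408 (0.952), E2F5 (0.944) and PCGF5 (0.942), the highest of 15297 probes ranked. These are descriptions over 8 arrays that share 2 control pools. All 5 were lowest on ErbB2-KD array 2, without which r over 7 arrays was 0.971, 0.971, 0.923, 0.896 and 0.886 in the same order, and of the 5 only KIAA0408 was well below control on average, at -0.76 in ErbB2-KD and -0.81 in MUC4-KD. SND1 had means of 0.07 and 0.06, so that it followed the order of the arrays and not the difference from control.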

How the data were processed

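RNA of CAPAN-2 knockdown clones was hybridised on 8 2-colour Agilent 60-mer arrays against a pool of control clones. The authors deposited scanner output with median spot intensity, background intensity and a log10 ratio of red over green, made with Agilent Feature Extraction 10.5 per the labels. Each deposited value table held these log10 ratios turned to the labelled knockdown over control. Their sign was thus opposite to red over green where the knockdown RNA was in Cy3. Groups came from the labels and the direction of each ratio from the dyes.

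Intensities were background-corrected (normexp, offset 50) and loess-normalized with limma 3.58.1 in R 4.3.3, with control and outlier spots at weight 0, turned to knockdown over control, and averaged over the spots of a probe. Channel levels used Aquantile. A probe was tested if well above background on all 4 arrays in either channel. Ratios were tested against 0, and the knockdowns against each other, with lmFit and eBayes (Benjamini-Hochberg over all tested probes, 0.05). Precision is limited by how many arrays there are. The procedure was tested on simulated data.

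Probes were named through RefSeq accessions (GRCh38.p14), which gave 25398 probes with 1 symbol. A gene is represented by its brightest probe. The members and the lists were chosen with earlier results of these data known. Named were the members, ERBB2 and MUC4, of each list at most the 4 called genes with the largest ratio in each experiment, TAPBP, PSMB10, NLRC5 and IRF1 whatever their values, and the 5 genes most correlated with the members. NFYA, RFXANK, IRF2, IFNGR1, IFNGR2, GBP1, GBP2, MICA, MICB and the markers of other cell types were named after their values were seen. Some list genes are not reported here and were left out of the lists and their counts. Alternatives were a normexp offset of 10, the scanner's log ratios, median centring, other filters on dim probes, the mean of a gene's probes, a dye term, 1 fit over 8 arrays, an intensity trend, MUC4-KD arrays averaged as dye swaps, the slide and the replicate number as blocks, the methods' t-test, leaving out each array and, added after the data were seen, the MUC4-KD sign turned in the difference.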

Additional observations from a re-analysis of the deposited data

Results flagged for a closer look

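In 6 of 84 sets of 4 arrays, 1 array lay apart from the other three by Dixon's test, which chance gives in about 1 in 20 sets. In ErbB2-KD these were array 2 for PSMB10 (-1.49), HM13 (-0.21) and RELB (-1.56), and array 1 for NFYB (-0.40). In MUC4-KD it was array 4 for IFI44L (-2.26) and MR1 (-0.22). The cause was not tested.

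By limma's test of MUC4-KD minus ErbB2-KD, 8 genes named by the rule differed between the knockdowns as labelled. Lower in MUC4-KD were IFIT1 (-2.94), MX2 (-2.55), OASL (-2.04), SOCS1 (-0.83) and HM13 (-0.75). Higher in MUC4-KD were POMP (1.11), NFYB (0.94) and PSMB7 (0.69). Of the regulators named after their values were seen, NFYA was lower on its brightest probe (-1.22) and IFNGR2 higher (1.26). The next NFYA probe had 0.59 in ErbB2-KD and 0.58 in MUC4-KD. POMP, NFYB, MX2, IFIT1, NFYA and IFNGR2 kept the call whichever array was left out. With the sign of the MUC4-KD ratios turned, chosen after the data were seen, these differences were 3.66 for IFIT1, 5.43 for MX2, 5.87 for OASL, 0.79 for SOCS1 and 0.44 for HM13. They were -0.92 for POMP, -0.78 for NFYB, -0.21 for PSMB7, -0.34 for NFYA and 0.085 for IFNGR2. HM13, PSMB7, NFYA and IFNGR2 were then not called (limma adjusted p of 0.0964, 0.423, 0.227 and 0.794).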

How the results depend on the processing

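No member changed the sign of its mean under any alternative tried, other than turning the MUC4-KD ratios themselves. Among the members, the median in the RNA labelled MUC4-KD moved from -1.21 to -1.49 with the scanner's log ratios. It ranged from -1.26 to -1.17 on leaving out 1 array, and that of ErbB2-KD from -1.36 to -0.84. Under median centring in place of loess, the SD of the members' array medians in MUC4-KD was 1.48, against 0.22.

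Of all probes, 342 were called in ErbB2-KD, and 1121 with 1 fit over 8 arrays, 190 with a dye term, 515 with an intensity trend, 31 with median centring (16 lower and 15 higher), 50 with no filter and 0 with the methods' t-test after adjustment (3173 unadjusted). Leaving out 1 array gave 0 (without array 1; 3864 unadjusted by limma) to 487. In MUC4-KD 5131 were called, and 1 with median centring, 2930 with no filter, 108 with the methods' t-test (6912 unadjusted) and 154 to 9347 on leaving out an array. For the difference 2479 were called (857 lower, 1622 higher), and 82 with median centring (4 lower, 78 higher), 783 with the replicate block, 4220 with the MUC4-KD sign turned (2219 lower, 2001 higher; chosen after the data were seen) and 737 to 4346 on leaving out an array.

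Of the list genes, 3 were called in ErbB2-KD, and 20 with 1 fit over 8 arrays, 1 with both channels above background, 1 with a dye term, 7 with the scanner's log ratios, with the intensity trend or with an offset of 10, 8 with the mean of a gene's probes, 0 with median centring (30 unadjusted), with no filter (35 unadjusted) or with the methods' t-test (24 unadjusted), and 0 to 2 on leaving out an array. In MUC4-KD 42 were called, and 0 with median centring (19 unadjusted), 1 with the methods' t-test (47 unadjusted) and 11 to 49 on leaving out an array. With MUC4-KD arrays 1 and 3, and 2 and 4, averaged as if they were dye swaps, 34 list genes were called (30 lower, 4 higher). For the difference 17 were called, and 0 with median centring (13 unadjusted), 39 with the sign turned (3 lower, 36 higher) and 11 to 24 on leaving out an array. The cause of these moves was not tested.

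Apart from the turned sign, signs reversed only for values without a call. With the scanner's log ratios, the IFI44L difference was 1.27 and SOCS1 in ErbB2-KD -0.013. With median centring the IFI44L difference was 0.13 and SOCS1 in ErbB2-KD -0.055, and with an offset of 10 the IFI44L difference was 0.36. On leaving out 1 array, the differences ranged from -0.44 to 0.48 for IFI44L, from -0.46 to 0.0065 for IRF9 and from -0.20 to 0.27 for PSMB10. In ErbB2-KD the ranges were -0.13 to 0.023 for NFYB, -0.51 to 0.0065 for PSMA7 and -0.12 to 0.20 for SOCS1.

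Same-numbered arrays did not deviate together (correlations of -0.12, -0.24, -0.05 and -0.13). They always carried the knockdown RNA in opposite dyes, so these correlations cannot show whether the numbers pair the samples. With the replicate block 12 of the list genes were called for the difference, and the calls of HM13, NFYB, PSMB7 and SOCS1 among the named genes were lost.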
